A study of Mus musculus with 2 samples.

Results

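Cytochromes P450 and flavin monooxygenases are the enzymes with which the liver oxidises drugs, toxins and many lipids. The set described here holds 36 listed mouse genes, made up of 33 P450 genes of the CYP1A, CYP2 and CYP3A subfamilies, 2 flavin monooxygenase genes and Por. The list was drawn up with earlier results of these data known, and probe sets were matched to it by gene symbol. On the array, 30 of the 36 had at least 1 probe set that the platform annotation names by that gene only, and all 30 passed the level filter, out of 13142 genes in all that passed it. Another 3 members, Cyp2a4, Cyp2a5 and Cyp3a41a, were represented only by probe sets that the annotation gives to several genes at once. The remaining 3, Cyp2a22, Cyp2c40 and Por, had no named probe set and were not analysed here.

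The livers came from wild-type C57BL/6 females aged 8 weeks. The AKI group (acute kidney injury) had both kidneys made ischemic at warm temperature for 30 min and then reperfused, and the sham group had surgery without this. Livers were collected 24 h later, and frozen tissue of 3 mice per group, 100 mg, was combined into 1 pool. Each pool was hybridised to 1 Affymetrix array, so there is 1 AKI array and 1 sham array. No difference between the pools can be tested, no p-value is given, and the words higher and lower refer to these 2 pools.

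A P450 holds a heme group, which binds oxygen, and receives its electrons from the reductase encoded by Por, partly with the help of cytochrome b5. Flavin monooxygenases carry their own flavin cofactor and oxidise nitrogen and sulfur atoms without heme. In hepatocytes, many P450 genes are controlled by ligand-activated receptors, among them the aryl hydrocarbon receptor for CYP1A, the constitutive androstane receptor (CAR, gene Nr1i3) for CYP2B and CYP2C, and the pregnane X receptor (PXR, gene Nr1i2) for CYP3A. Several subfamilies lie in clusters of near-identical genes, some of which differ in level between male and female mice.

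The median signal was 231.8 on the AKI array and 225.8 on the sham array, and the trimmed mean was 500.0 on both. Hepatocyte markers gave high signals in both pools, with Alb, the gene of serum albumin, at 98303.4 in the AKI pool and 124515.9 in the sham pool. The summed signal of 7 hepatocyte markers was 510186.3 in the AKI pool and 584386.9 in the sham pool, and their median difference was -0.34. Of 6 measured neutrophil markers 3 were at least 2-fold higher and 0 lower, with a summed signal of 6910.8 in the AKI pool against 2185.9 in the sham pool. Of 9 Kupffer cell and macrophage markers 1 was at least 2-fold higher and 3 lower, with a sum of 6961.6 in the AKI pool and 11804.7 in the sham pool. Of 8 endothelial markers 1 was at least 2-fold higher and 2 lower, and of 6 measured kidney markers 0 differed by 2-fold. By the same size, 1 of 8 stellate cell markers was higher and 1 lower, and 1 of 5 measured lymphocyte markers was higher and 0 lower. Of 2 measured bile duct cell markers 1 was higher. Their sum was 2556.7 in the AKI pool and 838.4 in the sham pool. Neither of 2 measured erythroid markers differed by 2-fold. For comparison, 12.8% of all 13142 genes were lower and 10.7% higher by this size. No marker list was tested against these shares. Some markers past 2-fold passed the level filter only through the array where they were high. These were S100a8 (161.4 in the sham pool), S100a9 (191.2 in the sham pool), Marco, Lyve1 and Nkg7, under it on the sham array. Lrat was under it on the AKI array. None of these markers was at 0. The ratio of the 3' to the 5' control probe set, a sign of RNA integrity, was 2.24 for Actb on the AKI array and 1.61 on the sham array, and for Gapdh it was 1.05 on the AKI array and 0.86 on the sham array. The part of cell composition and RNA integrity in the differences below was not tested. In pooled tissue, fewer cells of a type and less RNA per cell cannot be told apart.

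Differences are log2 values, AKI minus sham, of signal + 71.8, a constant that damps weak signals and understates their differences. Over all 13142 genes, the median difference was -0.02, and 12.8% were at least 2-fold lower and 10.7% at least 2-fold higher in the AKI pool, 1684 and 1409 genes. Of the 30 measured members, 6 (Fmo1, Fmo5, Cyp2u1, Cyp2c39, Cyp2c38 and Cyp2j5) were at least 2-fold lower and 1 (Cyp2b10) was at least 2-fold higher. Of these, Cyp2u1 passed the level filter only on the sham array, where it was high. So did Cyp3a16, which was lower by less than 2-fold. Dropping the level filter could not change the member count, since all 30 passed it. Over all genes, 1932 of 18193 were at least 2-fold lower without it. The member median was -0.36, and 23 of the 30 lay below 0, against 51.1% of all genes. Most members are strongly expressed, and 24 fell in the highest of 4 level classes. Among all 3286 genes of that class 15.5% were at least 2-fold lower, 13.8% at least 2-fold higher and 54.3% below 0, with a median of -0.10. The 24 members of the class had 5 at least 2-fold lower, 1 higher and a median of -0.32. With the main probe sets and the authors' scaling no member reached 4-fold, a size that 2.57% of all genes passed downwards and 2.23% upwards. Fmo1 passed it with centring on reference genes (-2.14) and Cyp2b10 with centring on hybridization controls (2.10).

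The only repeats are genes with several probe sets on the same arrays. The SD between probe sets of a gene was 0.67 in the highest level class and 0.85 in the lowest. This error leaves out the variation between mice, which the pools do not show. Of the 30 members, 20 differed by less than 1 such SD of their class and only Fmo1, Cyp2b10, Fmo5 and Cyp2u1 by more than 2. The other probe set of Cyp2u1 was at -0.16. No share of all genes was taken for these SD counts, so they do not show whether the members stand out. The size of a difference also depends on how the 2 arrays are scaled. Centring on 18 hybridization control probe sets raised every difference by 0.30, and centring on 12 reference genes lowered it by 0.29, which moved the member median to -0.065 and to -0.65 and the number of members at least 2-fold lower to 3 and to 9. The split over all genes became 1111 lower and 2252 higher under the first and 2582 lower and 922 higher under the second. In every setting that measured them, 17 members lay below 0 and 3 (Cyp2b10, Cyp2d9 and Cyp3a13) above it, and the other members changed sign in at least 1. The share of all genes that kept their sign was not taken. Each centring shifts all genes by the same amount, so a kept sign mainly means a difference larger than these shifts.

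**Figure D1:**
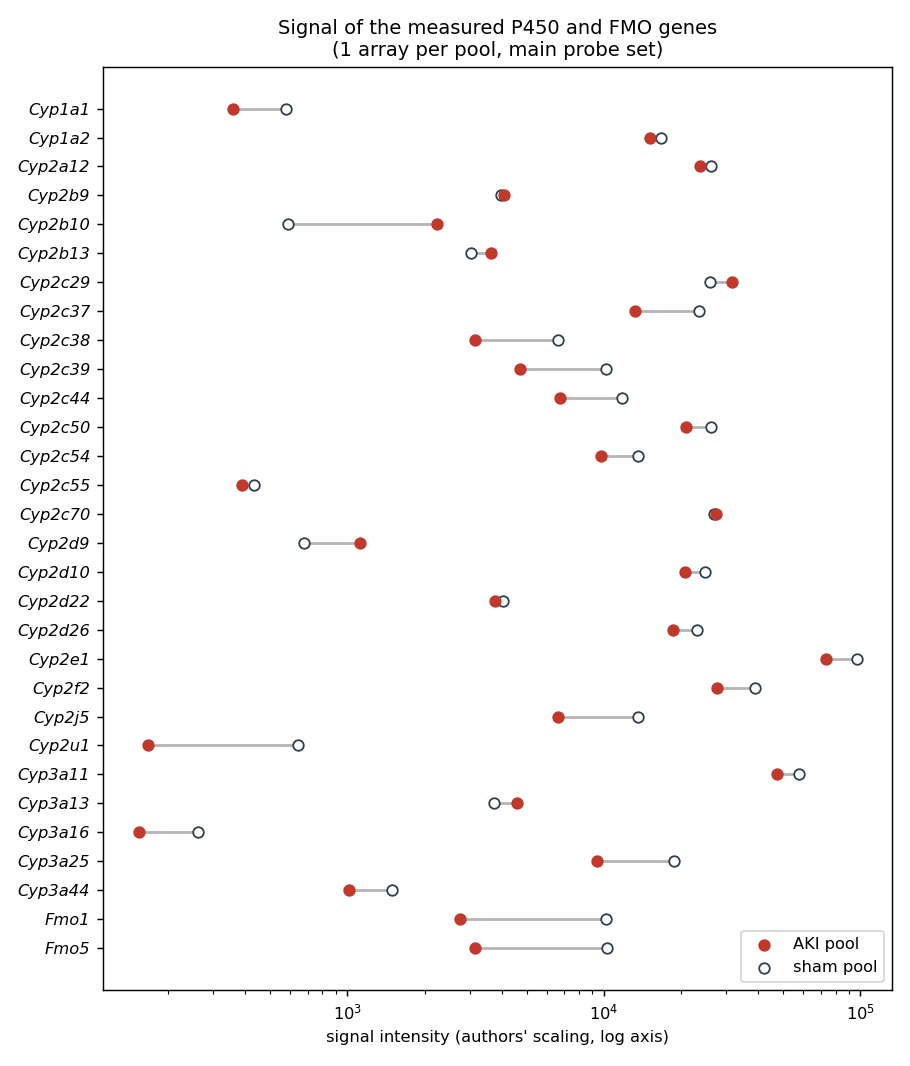
Signal intensity of the 30 measured members on a log axis, with filled points for the AKI pool and open points for the sham pool, 1 array each. Cyp2b10 is the member with a clearly higher AKI point (2242.0 in the AKI pool, 589.9 in the sham pool), and the widest gaps in the other direction are those of Cyp2u1, Fmo1 and Fmo5.

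The flavin monooxygenase genes had the lowest subfamily median of those with several measured genes. Fmo1, an oxygenase of nitrogen- and sulfur-containing compounds, had a signal of 2760.1 in the AKI pool and 10171.8 in the sham pool, a difference of -1.85. Fmo5, whose enzyme is known for inserting oxygen next to carbonyl groups rather than at nitrogen, had 3155.6 in the AKI pool and 10328.0 in the sham pool (-1.69). Each of them was at least 2-fold lower in all 11 settings, although some settings cannot change their values. A second probe set of Fmo5 had 1486.2 in the AKI pool against 4019.8 in the sham pool (-1.39). A further one had 282.8 in the AKI pool against 897.3 in the sham pool (-1.45). All 3 probe sets of Fmo5 were therefore past 2-fold, and Fmo1 had 1 probe set only.

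Fmo4 and Fmo2, measured genes of this family that are not members, were also lower by their main probe sets. Fmo4 had a signal of 192.8 in the AKI pool and 863.3 in the sham pool (-1.82), and Fmo2 had 240.4 in the AKI pool and 1892.2 in the sham pool (-2.65). On the AKI array, Fmo4 was under the level filter of 231.8 and Fmo2 just above it, so Fmo4 passed only through the sham array. The other 4 probe sets of Fmo2, known mainly as the lung form, spanned -3.37 to 0.51, so its value depends on the probe set.

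The CYP2B subfamily was the only one with several measured genes whose members all lay above 0, by 0.04 to 1.81, although 2 of the 3 were below 0 with centring on reference genes. Cyp2b10, the classical target of CAR and the gene most often used to report its activity, had signals of 2242.0 in the AKI pool and 589.9 in the sham pool, a difference of 1.81. Its other probe sets went the same way. One had 2071.9 in the AKI pool against 485.3 in the sham pool (1.94). The other had 1147.4 in the AKI pool against 389.3 in the sham pool (1.40). This last probe set is the only one of Cyp2b10 without the suffix _s_at, which marks probe sets that may also match related transcripts. Cyp2b9 and Cyp2b13, neighbouring genes with higher expression in female than in male mouse liver, differed little. Cyp2b13 had 3639.2 in the AKI pool and 3035.2 in the sham pool (0.26), and Cyp2b9 had 4087.9 in the AKI pool and 3986.3 in the sham pool (0.04). Both differences are inside the SD between probe sets, whereas Cyp2b10 stayed between 1.40 and 2.10 in all settings.

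The promoters of these 3 genes are shown because 1 of them belongs to the gene that was higher and the others to relatives that were nearly equal. Each sequence runs from 250 bases before to 50 after the gene's start, from RefSeq on build GRCm38.p6, plus strand, at chr7:25897408-25897707 for Cyp2b10, chr7:26173159-26173458 for Cyp2b9 and chr7:26061245-26061544 for Cyp2b13. Capitals mark matches to TTGCNNAA on either strand, a form of the site bound by C/EBP factors.
Cyp2b10: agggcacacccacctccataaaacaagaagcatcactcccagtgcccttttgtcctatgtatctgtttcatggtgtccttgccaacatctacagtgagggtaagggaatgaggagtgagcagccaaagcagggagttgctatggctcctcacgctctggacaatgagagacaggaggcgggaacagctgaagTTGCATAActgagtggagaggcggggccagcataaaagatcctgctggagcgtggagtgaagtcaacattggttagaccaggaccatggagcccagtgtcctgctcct
Cyp2b9: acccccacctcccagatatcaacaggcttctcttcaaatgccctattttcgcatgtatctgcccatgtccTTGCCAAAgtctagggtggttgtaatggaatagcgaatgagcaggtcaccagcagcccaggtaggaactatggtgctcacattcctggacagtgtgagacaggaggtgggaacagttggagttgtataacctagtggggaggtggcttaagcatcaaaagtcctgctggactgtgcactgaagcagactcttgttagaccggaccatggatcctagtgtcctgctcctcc
Cyp2b13: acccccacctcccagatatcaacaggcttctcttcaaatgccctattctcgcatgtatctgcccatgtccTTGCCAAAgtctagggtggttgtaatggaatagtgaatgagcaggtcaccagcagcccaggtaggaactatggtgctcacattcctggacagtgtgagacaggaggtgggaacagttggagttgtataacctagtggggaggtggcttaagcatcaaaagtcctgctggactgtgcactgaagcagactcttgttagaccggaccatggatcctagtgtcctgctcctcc
The Cyp2b9 and Cyp2b13 windows were identical at 298 of 300 aligned bases (99.3%), and the Cyp2b10 window matched either of them at 223 (74.3%). The marked match of Cyp2b10 lay 58 to 51 bases before the start, and those of Cyp2b9 and Cyp2b13 lay elsewhere, 180 to 173 bases before it. The match of Cyp2b10 also fits TTATGNAA on the other strand, the D-box read by the clock factors DBP, TEF and HLF, so the motifs overlap there. TTGCNNAA was found in 25.8% of 31 member genes with a promoter in the table and in 10.8% of 27025 genes, and TTATGNAA in 9.68% and 3.52%. A match is a description of letters, not a binding site.

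The distal element through which CAR acts on Cyp2b10 lies outside this window. CAR itself, Nr1i3, went the other way from Cyp2b10, with a signal of 700.8 in the AKI pool and 4651.7 in the sham pool (-2.61). Its heterodimer partner Rxra had 2424.3 in the AKI pool and 6103.2 in the sham pool (-1.31), but 2 other probe sets of Rxra lay at -0.16 and 0.01. PXR, Nr1i2, differed by -0.38 and its other probe set by -0.74.

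CYP2C was the largest subfamily, with 9 of 10 members measured, 7 of them below 0 and 2 above, a median of -0.47 and a range of -1.10 to 0.28. These enzymes oxidise drugs and, in mice, arachidonic and linoleic acid. Cyp2c39, known for hydroxylating retinoic acid, had signals of 4705.0 in the AKI pool and 10195.9 in the sham pool (-1.10). Cyp2c38 had 3152.1 in the AKI pool and 6633.1 in the sham pool (-1.06). These neighbours on chromosome 19 were the only CYP2C members at least 2-fold lower with the authors' scaling, and neither passed 2-fold with centring on hybridization controls (-0.81 for Cyp2c39 and -0.76 for Cyp2c38). With centring on reference genes Cyp2c37 (-1.10) and Cyp2c44 (-1.09) passed it as well. Cyp2c37 followed with 13275.3 in the AKI pool and 23401.8 in the sham pool (-0.81). Cyp2c44, which RefSeq now calls Cyp2c23 and whose enzyme makes epoxides of arachidonic acid, had 6723.3 in the AKI pool and 11738.7 in the sham pool (-0.80).

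The other CYP2C genes differed by less than 1 SD between probe sets. Cyp2c54 had 9771.4 in the AKI pool and 13540.9 in the sham pool (-0.47), and Cyp2c50 had 20840.1 in the AKI pool and 26230.2 in the sham pool (-0.33). Cyp2c55 was weak, with 390.2 in the AKI pool and 434.5 in the sham pool (-0.13). Cyp2c70, which makes the muricholic acids of mouse bile, was almost equal, with 27301.7 in the AKI pool and 26766.5 in the sham pool (0.03). Cyp2c29, a pericentral gene that responds to CAR, had 31672.5 in the AKI pool and 26023.3 in the sham pool (0.28) and turned to -0.006 with centring on reference genes. Cyp2c68, a CYP2C gene outside the list, had 16832.1 in the AKI pool and 35827.4 in the sham pool (-1.09).

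The promoters of the lower pair and of Cyp2c29 are set side by side because the genes are close relatives that stood at opposite ends of the subfamily. They come from the same RefSeq table and build, at chr19:39463026-39463325 on the minus strand for Cyp2c38, chr19:39510572-39510871 on the plus strand for Cyp2c39 and chr19:39286835-39287134 on the plus strand for Cyp2c29. Capitals mark TATAAA on either strand, the letters of a TATA box.
Cyp2c38: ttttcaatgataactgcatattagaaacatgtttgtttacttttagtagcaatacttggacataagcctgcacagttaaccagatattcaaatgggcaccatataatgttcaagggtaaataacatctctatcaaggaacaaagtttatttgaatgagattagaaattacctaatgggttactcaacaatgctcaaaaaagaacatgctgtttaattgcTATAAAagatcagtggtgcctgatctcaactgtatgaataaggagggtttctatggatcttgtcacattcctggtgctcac
Cyp2c39: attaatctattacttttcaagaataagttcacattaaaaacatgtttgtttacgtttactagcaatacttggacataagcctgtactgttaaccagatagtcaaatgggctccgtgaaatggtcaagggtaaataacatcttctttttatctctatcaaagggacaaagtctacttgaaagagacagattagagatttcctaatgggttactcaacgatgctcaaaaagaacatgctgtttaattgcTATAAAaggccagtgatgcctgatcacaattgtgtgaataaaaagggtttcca
Cyp2c29: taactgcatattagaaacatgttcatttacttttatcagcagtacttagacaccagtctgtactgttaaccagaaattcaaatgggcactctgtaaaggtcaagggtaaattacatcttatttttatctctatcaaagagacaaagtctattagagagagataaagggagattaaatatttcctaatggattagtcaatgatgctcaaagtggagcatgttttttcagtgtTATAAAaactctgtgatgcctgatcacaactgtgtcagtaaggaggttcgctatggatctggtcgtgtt
Aligned, Cyp2c38 and Cyp2c39 shared 239 of 300 bases (79.7%). Cyp2c29 shared 226 with Cyp2c38 (75.3%) and 223 with Cyp2c39 (74.3%). The table holds another start for Cyp2c39, and with the start used here TATAAA overlaps the start itself. TATAAA was found in 71% of the 31 member genes and in 14.2% of all 27025. These shares count a match anywhere in the 300 bases, also far from the start. Cyp3a11, for instance, has it 234 to 229 bases before the start and Fmo5 195 to 190. CAAAGTCC, letters read by the liver factor HNF4A, was found in 22.6% of member genes (Cyp2a4, Cyp2a5, Cyp2c40, Cyp2c70, Cyp3a11, Cyp3a16 and Cyp3a41a) and in 1.44% of all. Near-identical promoters, such as those of Cyp2a4 and Cyp2a5 (98%), count as separate genes in these shares.

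**Figure D2:**
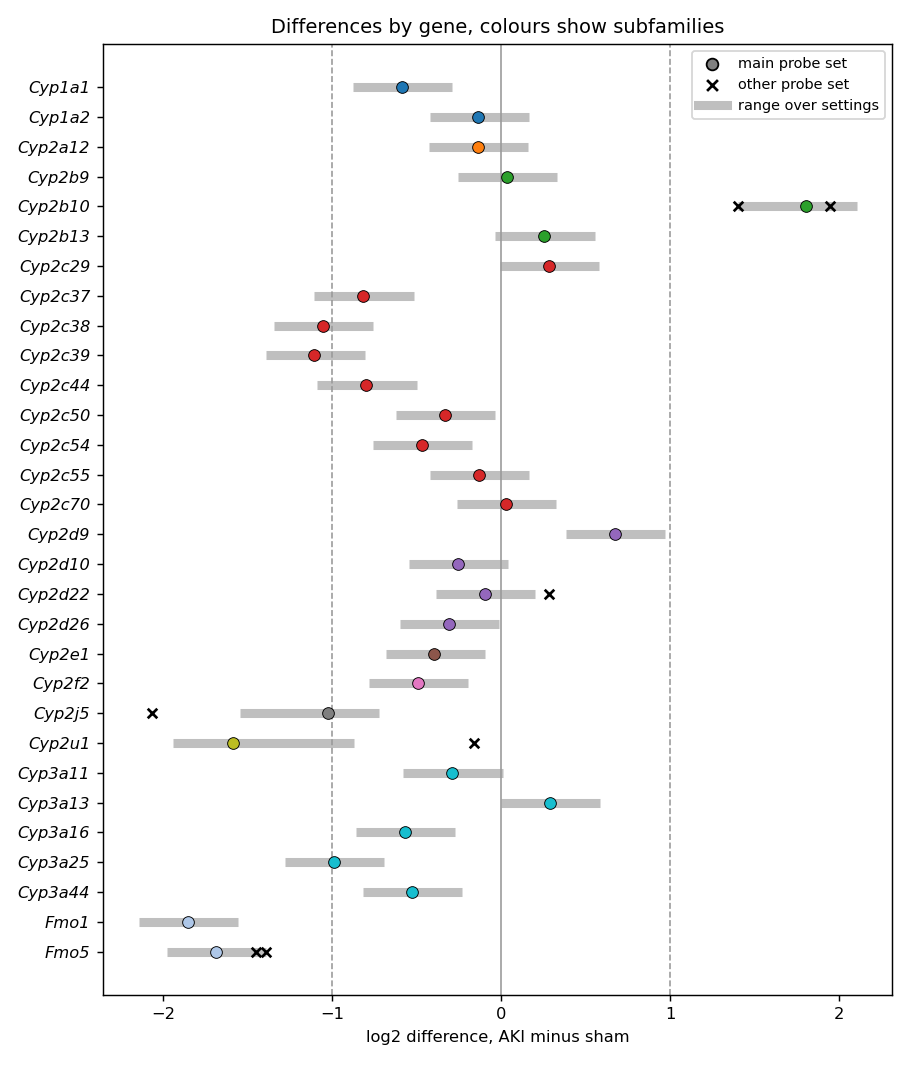
Log2 difference, AKI minus sham, of each measured member. Coloured points are main probe sets with 1 colour per subfamily, crosses are other probe sets, grey bars span the 11 settings, and dashed lines mark 2-fold. Fmo1 and Fmo5 lie left of the lower line and Cyp2b10 right of the upper line over their whole bars, and Cyp2u1 has a cross near 0.

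The CYP3A genes include the main drug-oxidising P450 of mouse liver, Cyp3a11, which responds to PXR. Of 5 measured members 4 lay below 0 and 0 passed 2-fold, with a median of -0.53. Cyp3a25 had the largest difference, with 9390.9 in the AKI pool and 18705.2 in the sham pool (-0.99), just short of 2-fold, while Cyp2j5 at -1.02 lay just past it. Cyp3a25 passed 2-fold in 3 of the 11 settings, with the largest difference, -1.28, under centring on reference genes. Cyp3a11 had 47146.9 in the AKI pool and 57599.2 in the sham pool (-0.29). Cyp3a13, a form known also from the intestine, had 4586.7 in the AKI pool and 3737.4 in the sham pool (0.29). Cyp3a11 and Cyp3a13 therefore differed by similar small amounts in opposite directions, both inside the SD between probe sets.

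Cyp3a16, Cyp3a41a and Cyp3a44 are female-biased genes. Cyp3a44 had 1018.3 in the AKI pool and 1500.1 in the sham pool (-0.53). Cyp3a16 was weak, with 153.8 in the AKI pool and 262.5 in the sham pool (-0.57), and it passed the level filter only on the sham array. The probe set annotated to Cyp3a41a and Cyp3a41b together had 36300.5 in the AKI pool and 34505.5 in the sham pool (0.07), and it cannot be assigned to either gene.

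Female-biased members as a list stood at -0.57 to 0.26 over the 4 that were measured, with 0 past 2-fold. The male-biased Cyp2d9, a testosterone hydroxylase, had 1120.3 in the AKI pool and 676.4 in the sham pool (0.67) and was above 0 in every setting that measured it. Its probe set carries the suffix _a_at, so it may match several transcripts. The other CYP2D genes were close to equal. Cyp2d26 had 18605.1 in the AKI pool and 23085.1 in the sham pool (-0.31), and Cyp2d10 had 20675.4 in the AKI pool and 24705.6 in the sham pool (-0.26). Cyp2d22 had 3765.9 in the AKI pool and 4031.0 in the sham pool (-0.10), and its other probe set differed by 0.28, so its probe sets disagreed in direction. The median of the 4 CYP2D genes was -0.18, and it turned to 0.12 with centring on hybridization controls.

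**Figure D3:**
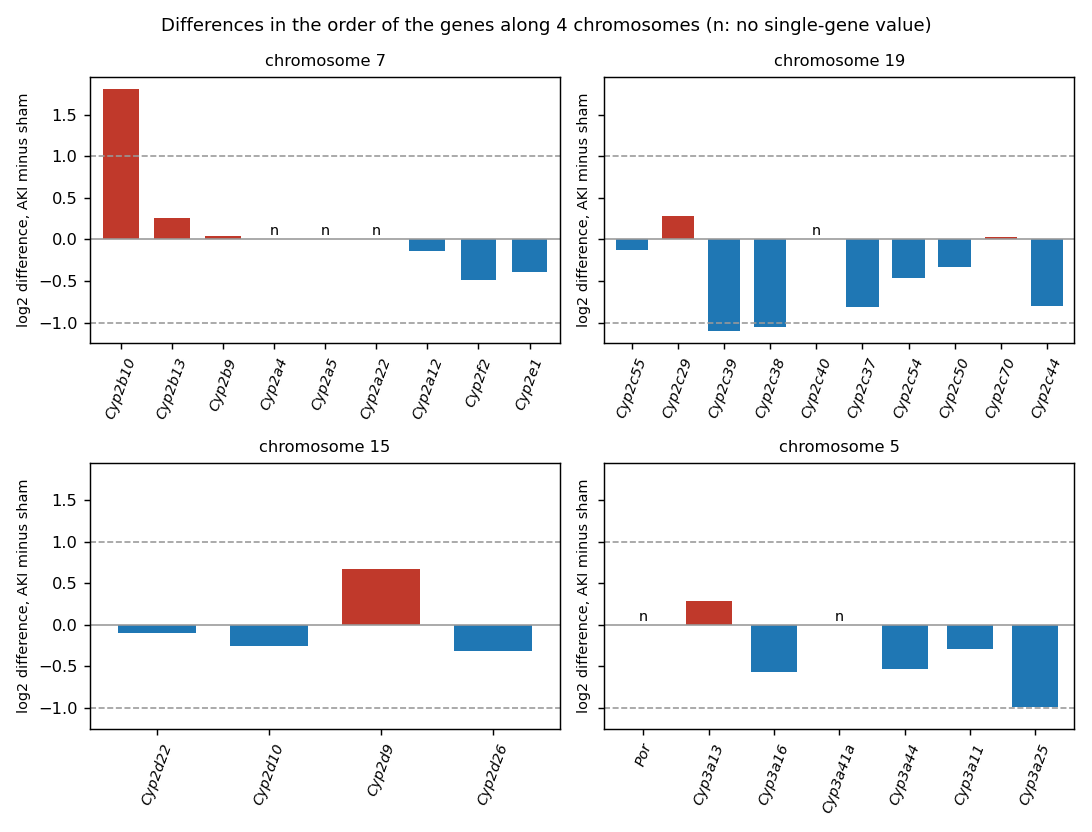
Log2 difference, AKI minus sham, of the members along chromosomes 7, 19, 15 and 5, in their order apart from Cyp2c38 and Cyp2c39. Bars above 0 are red and below 0 blue, n marks members without a single-gene value, and dashed lines mark 2-fold. On chromosome 7 Cyp2b10 stands beside Cyp2b13 and Cyp2b9 with small bars. On chromosome 19 Cyp2c39 and Cyp2c38 are drawn after Cyp2c29, which has the opposite sign. By the start positions given above, Cyp2c38 lies between Cyp2c29 and Cyp2c39, unlike the order drawn.

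The CYP1A genes are the textbook targets of the aryl hydrocarbon receptor. Cyp1a2, the constitutive liver form, had 15186.3 in the AKI pool and 16674.5 in the sham pool (-0.13). Cyp1a1, the inducible form, was weak, with 358.4 in the AKI pool and 574.6 in the sham pool (-0.59). Neither differed by more than the SD between probe sets. The receptor gene Ahr had 2528.7 in the AKI pool and 1416.4 in the sham pool (0.81), with its other probe set at -0.20. Of other genes that respond to this receptor, Tiparp, which encodes an ADP-ribosyltransferase that feeds back on it, was higher at 17476.6 in the AKI pool and 886.4 in the sham pool (4.20). Nqo1, a quinone reductase, was lower at 40.7 in the AKI pool and 528.1 in the sham pool (-2.41), and it passed the level filter only on the sham array. Cyp1b1 had a main probe set at 1.40 and 2 others at -0.68 and -0.67. The letters GCGTG, the core of the receptor's site, were found in 9.68% of member genes (Cyp1a1, Cyp2b10 and Por) and in 32.5% of all.

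In the CYP2A subfamily, the probe set annotated to Cyp2a4 and Cyp2a5 together had 59506.2 in the AKI pool and 44766.9 in the sham pool (0.41). Cyp2a5 hydroxylates coumarin and Cyp2a4 testosterone, and this probe set cannot tell them apart. Cyp2a12 had 23772.3 in the AKI pool and 26120.5 in the sham pool (-0.14).

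Single genes of other CYP2 subfamilies differed more. Cyp2u1, whose enzyme hydroxylates long-chain fatty acids, had 166.5 in the AKI pool and 643.1 in the sham pool (-1.58). The AKI signal is under the level filter of that array, 231.8. Its other probe set had 204.5 in the AKI pool and 236.7 in the sham pool (-0.16), and their mean was under 2-fold. Cyp2j5, an epoxygenase of arachidonic acid in kidney and liver, had 6636.5 in the AKI pool and 13545.7 in the sham pool (-1.02). Its other probe set went the same way and further, with 657.4 in the AKI pool and 2980.0 in the sham pool (-2.07). Both probe sets of Cyp2j5 were thus past 2-fold, although the main one was at -0.72 with centring on hybridization controls, and those of Cyp2u1 disagreed in size. Cyp2j6, a CYP2J gene outside the list, went the other way from Cyp2j5. It had 832.4 in the AKI pool and 631.5 in the sham pool (0.36), with its other probe set at 1.47.

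Cyp2e1 and Cyp2f2 mark opposite zones of the liver lobule. Cyp2e1, the pericentral oxidase of ethanol and acetaminophen, had 73503.4 in the AKI pool and 96610.6 in the sham pool (-0.39). Cyp2f2, a periportal gene whose enzyme activates naphthalene, had 27557.4 in the AKI pool and 38790.7 in the sham pool (-0.49). Both differences were below 0 in every setting that measured them and inside the SD between probe sets. The 6 measured pericentral P450 genes had a median of -0.31 with 0 past 2-fold. Among pericentral genes outside the P450 family, 2 of 10 were at least 2-fold lower and 1 higher, and among periportal genes 2 of 8 lower and 0 higher. Over all genes 12.8% were lower and 10.7% higher by this size, and the zones were not compared by a test. Of the pericentral genes past 2-fold, Slc1a2 (-1.59) had other probe sets up to 1.13. Glul (1.28) had another probe set at -0.27. Gulo (-1.30) had no other probe set. The lower periportal genes were Pck1 (-4.48), with other probe sets at -4.355 and -0.482, and Hal (-2.82), with no other probe set.

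P450 enzymes depend on heme and on electron donors, whose genes formed a separate list. Of its 12 measured genes, 5 (Ppox, Cpox, Alad, Cyb5b and Urod) were at least 2-fold lower and 1 (Hmox1) was higher, with a median of -0.86, where 12.8% of all genes were lower and 10.7% higher by this size. Alas1, the rate-limiting enzyme of heme synthesis in liver, had 13048.5 in the AKI pool and 23934.9 in the sham pool (-0.87), and its other probe set was at -1.09. Hmox1, which breaks heme down, had 1934.3 in the AKI pool and 619.7 in the sham pool (1.54). Cyb5a, the microsomal cytochrome b5 that passes electrons to P450 enzymes, had 40351.0 in the AKI pool and 32909.6 in the sham pool (0.29). Cyb5b, the outer mitochondrial form, had 2832.9 in the AKI pool and 6327.5 in the sham pool (-1.14), with its 2 other probe sets at -1.94 and -1.76. For Ppox (-2.36), Cpox (-2.15) and Alad (-1.31), other probe sets reached 0.26, 0.50 and 0.41, so these 3 values were not repeated by every probe set. Ppox had 90.2 in the AKI pool and 762.2 in the sham pool, so it passed the level filter only on the sham array. Urod differed by -1.06 and its other probe set by -0.89, under 2-fold.

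Among 18 measured receptor and transcription factor genes known to act on P450 genes, 8 were at least 2-fold lower and 1 was higher, with a median of -0.96, against the same shares of all genes. Besides Nr1i3 and Rxra, the lower ones were Dbp (-3.35), Onecut1 (-2.09), Ppara (-2.01), Tef (-1.99), Cux2 (-1.90) and Hlf (-1.14). Cux2, a regulator of female-biased liver genes, had another probe set at 1.62, and Tef had one at -0.12. The signal of Cux2 was 159.2 in the AKI pool and 791.5 in the sham pool, so it passed the level filter only on the sham array. Bcl6, a repressor with higher expression in males, was the gene at least 2-fold higher (1.83), but its other probe set was at 0.37. Hnf4a, which sustains hepatocyte gene expression, had 9432.5 in the AKI pool and 16869.6 in the sham pool (-0.83), and its 3 other probe sets lay between -0.98 and -0.46. The medians of this list and of the heme and electron list stand beside -0.36 for the members and -0.02 for all genes, without a test between them.

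**Figure D4:**
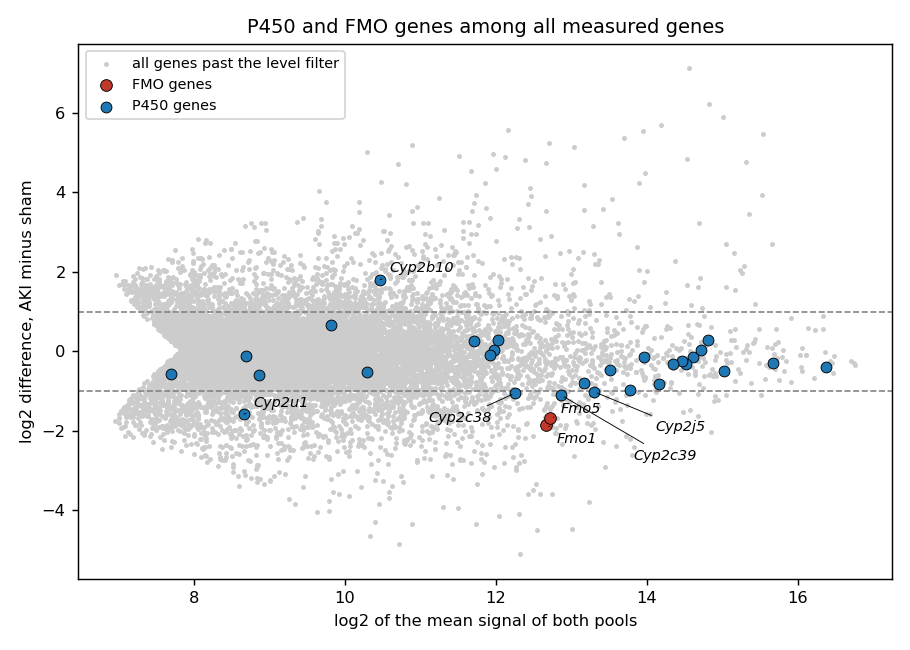
Log2 difference, AKI minus sham, against the log2 of the mean signal of both pools for the 13142 genes past the level filter (grey), with P450 genes in blue and flavin monooxygenase genes in red. Members lie mostly at high signal and near 0, the 2 flavin monooxygenase points lie below the 2-fold line and Cyp2b10 above it.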

How the data were processed

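Liver RNA pools of 3 mice each were measured on 2 Affymetrix arrays, 1 per group, from 8 ug of total RNA. The deposited values are signal intensities per probe set on a linear scale, which the authors had scaled, as the equal trimmed means show. The software is not named in the labels. Of 45101 probe sets 64 are controls, and of the other 45037 the platform annotation names 34945 by 1 gene, 932 by several and 9160 by none. Cyp2c44 was found through its RefSeq synonym.

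Differences are log2(signal + 71.8), AKI minus sham, with the table's 25th percentile as the added constant. A gene is represented by its probe set with the highest mean signal, and it passed the level filter when that probe set reached the array median of non-control probe sets (231.8 AKI, 225.7 sham) on at least 1 array. With 1 array per group there is no replicate and no test, and the number of arrays limits the precision. All members could be named, and of the other lists the genes past 2-fold or needed for a level. The members and lists were chosen with earlier results of these data known. Gene lists were matched by symbol. A further 10 settings were tried. Promoters came from RefSeq (GRCm38.p6), and for Cyp2c39 the second of its 2 listed starts was used. The computation was tested on simulated data. The work used Python 3.11.15, numpy 2.4.6, pandas 2.3.3 and matplotlib 3.10.9.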

Additional observations from a re-analysis of the deposited data

How the results depend on the processing

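The settings tried were 4 other scalings, 2 other pseudocounts, 2 other level filters, averaging over all probe sets of a gene, and using only probe sets whose name ends in _at without s, x or a. Centring on hybridization controls gave a member median of -0.065 with 3 members at least 2-fold lower, and 1111 genes lower and 2252 higher over all genes (median 0.276). Centring on reference genes gave a member median of -0.651 with 9 members at least 2-fold lower, and 2582 genes lower and 922 higher. The authors' scaling gave 1684 lower and 1409 higher. Setting the median to 0 and quantile normalization each gave 7 members at least 2-fold lower, against 6 with the authors' scaling. A pseudocount of the table median, 228.7, gave 1093 lower and 867 higher genes. The CYP2D median reversed to 0.121 with hybridization control centring, the CYP2B median to -0.033 with reference gene centring, and the median of all genes to 0.004 without a level filter. Fmo1 and Fmo5 were at least 2-fold lower and Cyp2b10 at least 2-fold higher in all 11 settings. The other level filters cannot change these differences, and the probe set settings cannot change that of Fmo1, which has 1 probe set. The share of all genes that stayed past 2-fold in every setting was not taken. No paired analysis was possible because each group has 1 array. For the same reason no replicate could be left out. Weak signals, such as those of Cyp3a16, Cyp1a1 and Cyp2u1, limit what the arrays can show for these genes.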
